A study of Rattus norvegicus with 18 samples.

Results

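The miR-181 family was followed through 18 small RNA libraries of rat liver. Its members were taken by row name and were the 3 main arms rno-miR-181a-5p, rno-miR-181b-5p and rno-miR-181c-5p (the prefix rno, for rat, is left out from here on), 3 of the 401 miRNA rows of the deposited table. A further 6 rows carry the name miR-181 and are described at the end. There were 6 libraries in each of 3 groups, all from rats of 8 weeks with the strain label ZDF-Leprfa/Crl, which carries the fa allele of the leptin receptor gene Lepr. The lean group is labelled lean and no agent is given for it. The vehicle group is labelled obese and received vehicle, and the colesevelam group is labelled obese and received colesevelam, a polymer taken by mouth that holds bile acids back in the intestine. Because the strain label is the same in all groups, lean rats are told from obese ones by title and phenotype label alone. The labels do not give the number of rats or say that each library came from a rat of its own, so p-values measure the spread between libraries, which may be technical in part.

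MicroRNAs are short RNAs that guide Argonaute proteins to messenger RNAs, mainly through pairing of bases 2 to 8 from the 5′ end, the seed. miRNAs with the same seed are counted as a family because they can pair with many of the same sites. The miR-181 family is best known from lymphocytes, where miR-181a tunes the signal strength of the T cell receptor by repressing phosphatases, and from endothelium, where miR-181b dampens NF-κB signalling. In liver cells miR-181a has been described as a repressor of the deacetylase Sirt1.

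The mature sequences show what the members share and where they differ. They are printed 5′ to 3′ as the deposited table has them, with U for T and the seed in capitals. The 4 sequences below are all the rows of the table with this seed.

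miR-181a-5p: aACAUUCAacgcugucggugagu
miR-181b-5p: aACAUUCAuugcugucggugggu
miR-181c-5p: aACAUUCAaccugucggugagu
miR-181d-5p: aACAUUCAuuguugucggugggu

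All 4 were identical to the RefSeq entries for GRCr8, and the same 4 names were the only ones with the seed among 693 mature names there. The first 8 bases did not differ in any pair. Counted from the 5′ end, miR-181a-5p and miR-181b-5p differed by 3 substitutions, A9U, C10U and A21G. miR-181c-5p is 22 bases long against 23 for miR-181a-5p, and 1 edit (a single base more or less) separates them. miR-181b-5p and miR-181d-5p differed by C12U alone. With differences this small, reads can be shared between members, and no source used here gives how the authors assigned such reads.

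Locations in the deposited table are on a genome build that no source used here names. There miR-181a-5p has a location on chromosome 3 (28374807 to 28374829, plus strand) and another on chromosome 13 (59986089 to 59986111, plus strand). miR-181b-5p stands beside it at both places, at 28375886 to 28375908 on chromosome 3 and at 59986271 to 59986293 on chromosome 13. The counts of these rows therefore pool 2 precursors each. miR-181c-5p has a single location, on the minus strand of chromosome 19 (36267372 to 36267393), next to miR-181d-5p (36267201 to 36267223). In the RefSeq annotation of GRCr8 the genes Mir181a2 and Mir181b2 lie inside Nr6a1, the gene of an orphan nuclear receptor, and inside the non-coding RNA gene LOC120101539. Mir181a-1 and Mir181b1 lie inside the non-coding RNA gene LOC108352541, 110550 and 110379 bases from Ptprc, the gene of the leukocyte phosphatase CD45. Mir181c and Mir181d lie outside annotated host genes, 77 bases apart, with the germ cell gene Nanos3 next to them and Mir23a 28447 bases from Mir181c.

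Precursor hairpins show both arms of a member. They are given below for the most abundant member and for the one that differed between groups, from RefSeq (GRCr8, plus strand), with the counted 5p arm in capitals. Mir181a2 lies at chr3:43025563-43025679 and Mir181c at chr19:40888291-40888396.

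Mir181a2: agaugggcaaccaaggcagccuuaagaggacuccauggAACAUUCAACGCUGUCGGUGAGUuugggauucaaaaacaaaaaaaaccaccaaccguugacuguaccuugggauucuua
Mir181c: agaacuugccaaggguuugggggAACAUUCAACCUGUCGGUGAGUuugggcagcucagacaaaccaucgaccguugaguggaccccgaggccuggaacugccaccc

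Libraries held 32936 to 881450 miRNA counts. Lean libraries were the deeper ones, with a median of 184888 counts, against 51430 in vehicle and 58438 in colesevelam libraries. Levels are given in CPM, the count divided by the library's miRNA total in the usual way, after scaling by TMM, a method that sets libraries on a common scale by assuming that most miRNAs do not differ, so every change is relative to the other miRNAs. With a count of 0, a level of 3.92 CPM would still be possible in lean 2, the deepest library, and one of 84.3 CPM in colesevelam 1, the shallowest (3 counts, counting error only). The liver label fitted the data, since the hepatocyte miRNAs miR-122-5p, miR-192-5p, miR-194-5p and miR-148a-3p together held 211242 to 492242 CPM in every library.

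miR-181a-5p made up nearly all of the family. Over all libraries it gave 31650 of the 33160 counts with the shared seed, or 95.4%, against 745 for miR-181b-5p, 680 for miR-181c-5p and 85 for miR-181d-5p. Its share of the seed counts lay between 91.8% and 98.0% in the individual libraries. In order of mean level among the 112 miRNAs with enough counts to test, miR-181a-5p stood at place 16 with 14806 ± 6469 CPM (mean ± SD over 18 libraries), between let-7a-5p (15027 CPM) and let-7c-5p (11533 CPM). miR-181b-5p stood at place 80 with 336.8 ± 160.5 CPM, between miR-21-3p (345.8) and miR-15b-5p (334.1), and miR-181c-5p at place 91 with 232.5 ± 96.9 CPM, between miR-497-5p (263.8) and miR-328a-3p (228.6). None of the members differed from its neighbours in this order by more than its own SD. The mature miRNAs are of nearly equal length, so these levels were compared without a length correction. No correction was made for GC content either, and the slope of level on GC content differed between libraries, as described further on.

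miR-181c-5p was lower in colesevelam than in lean liver, and it was the only one of the 3 members called in any comparison. Its level was 146.3 ± 49.2 CPM in colesevelam libraries (mean ± SD, n = 6), 271.8 ± 44.6 CPM in lean libraries and 279.4 ± 118.7 CPM in vehicle libraries. miR-181a-5p and miR-181b-5p, with the same seed, were not called in any comparison, and their levels in the 3 groups overlapped widely. Colesevelam and lean libraries differ in phenotype label, in agent and in depth at once, and these cannot be told apart in that comparison.

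**Figure D1:**
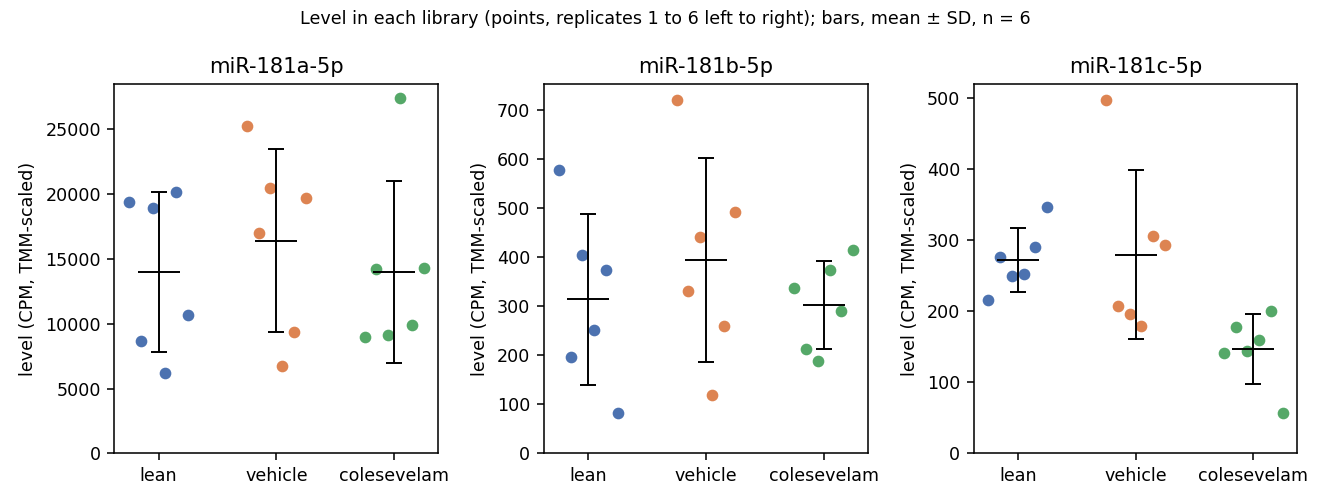
Level of each member in each library (points, in CPM on a linear axis from 0, replicates 1 to 6 from left to right) with the mean and SD of 6 libraries per group. All 6 colesevelam libraries of miR-181c-5p lie below the lowest lean library, while the groups overlap for miR-181a-5p and miR-181b-5p.

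The colesevelam libraries 1 to 6 held 140.5, 177.7, 143.7, 159.8, 199.6 and 56.6 CPM of miR-181c-5p. The lean libraries 1 to 6 held 215.6, 276.0, 249.9, 252.2, 290.6 and 346.3 CPM. Every colesevelam library thus lay below every lean library, with colesevelam 6 lowest of all. These levels rest on few reads, 3 to 20 counts in a colesevelam library and 25 to 211 in a lean one. For colesevelam 6 the exact 95% binomial interval of its 3 counts runs from 11.7 to 165.3 CPM. For colesevelam 5, the highest colesevelam library, the interval runs from 121.9 to 308.3 CPM. It overlaps most of the interval of lean 1, the lowest lean library, from 139.5 to 318.2 CPM.

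For colesevelam against lean, the log2 fold change of miR-181c-5p was −0.87 ± 0.29 (SE, edgeR adjusted p = 0.0352, quasi-likelihood F test adjusted over the 112 miRNAs by the Benjamini-Hochberg method), a 1.83-fold lower level. The 95% interval of the log2 fold change ran from −1.47 to −0.27. Of the 112 miRNAs, 11 (9.82%) were called lower in this comparison and 24 (21.4%) were called in either direction, and the groups did not overlap in 9 (8.04%). miR-181c-5p was 1 of the 11, at place 20 by p-value. The call ended without lean 2 (edgeR adjusted p = 0.0611), colesevelam 1 (0.0914), colesevelam 4 (0.0552) or colesevelam 6 (0.0700), and also with upper-quartile scaling (0.0667), with no filter on low counts (0.0820) and with libraries summed by a number in their labels (0.0943). With each of the 12 libraries left out in turn, the log2 fold change lay between −0.999 and −0.67.

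miR-181a-5p was not called. Its level was 13987 ± 7016 CPM in colesevelam and 14005 ± 6205 CPM in lean libraries (mean ± SD, n = 6), or −0.00 ± 0.35 on the log2 scale (edgeR adjusted p = 0.99967, 95% interval −0.72 to 0.72). miR-181b-5p was at 302.6 ± 89.5 against 314.1 ± 174.6 CPM, or on the log2 scale −0.06 ± 0.40 (edgeR adjusted p = 0.935, 95% interval −0.89 to 0.77). These intervals are wide: the −0.87 of miR-181c-5p lies outside that of miR-181a-5p and just inside that of miR-181b-5p. Whether the members differ from each other in their change was not tested. The median log2 fold change was −0.06 over the 3 members and −0.08 over all 112 miRNAs.

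Colesevelam against vehicle, the comparison of treated with untreated obese rats, gave miR-181c-5p a fold change of similar size that missed the threshold. The vehicle libraries 1 to 6 held 496.5, 206.8, 195.8, 178.4, 305.6 and 293.1 CPM of miR-181c-5p. Vehicle 1 was the highest of all 18 libraries, and vehicle 3 and 4 lay within the colesevelam range. Of the 6 colesevelam libraries 5 lay below every vehicle library, and colesevelam 5 (199.6 CPM) lay within the vehicle range. Among the 5, colesevelam 2 (177.7 CPM, 10 counts) lay only just below vehicle 4 (178.4 CPM, 9 counts). Their exact 95% binomial intervals, 85.2 to 326.8 and 81.6 to 338.7 CPM, overlap almost fully. The log2 fold change was −0.91 ± 0.30 (edgeR adjusted p = 0.0523, 95% interval −1.53 to −0.28), with 4 of 112 miRNAs (3.57%) called lower, 12 (10.7%) called in all and 6 (5.36%) whose groups did not overlap. Leaving out vehicle 1, or any other of the 12 libraries, gave no call either, with edgeR adjusted p from 0.0512 to 0.212. It passed with library totals alone, without miR-192-5p in the totals, with DESeq2 size factors and in DESeq2's own test (DESeq2 adjusted p = 0.0252). It also passed in a fit with the GC slope of each library, chosen after seeing the data and described further on. Of 24 alternatives, 19 left it without a call. Of these, 12 were the fits with a library left out, and another was the fit with no filter on low counts (edgeR adjusted p = 0.228).

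For miR-181a-5p the log2 fold change of colesevelam against vehicle was −0.23 ± 0.35 (edgeR adjusted p = 0.781, 95% interval −0.96 to 0.49), from 16426 ± 7060 to 13987 ± 7016 CPM. For miR-181b-5p it was −0.38 ± 0.42 (edgeR adjusted p = 0.694, 95% interval −1.25 to 0.48), from 393.8 ± 207.7 to 302.6 ± 89.5 CPM. All 3 members were on the negative side, with a median of −0.38 against −0.01 over all 112 miRNAs. The signs of miR-181a-5p and miR-181b-5p turned positive in a fit that took the GC slope of each library into account, described further on.

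Vehicle against lean, the comparison of obese with lean liver, gave no call among the members in edgeR, in DESeq2 or in limma-voom, with 7 of 112 miRNAs (6.25%) called in all by edgeR. None of the 3 members had an unadjusted p under 0.05 in the edgeR fit, where 21 of 112 miRNAs (18.8%) did. miR-181a-5p was at 0.23 ± 0.35 (edgeR adjusted p = 0.793, 95% interval −0.49 to 0.95), miR-181b-5p at 0.32 ± 0.39 (0.772, −0.49 to 1.14) and miR-181c-5p at 0.04 ± 0.27 (0.989, −0.52 to 0.60) on the log2 scale. The group means of miR-181c-5p, 279.4 CPM in vehicle and 271.8 CPM in lean libraries, differed by less than either SD. The vehicle libraries spread wider: 3 of the 6 vehicle libraries lay below every lean one and 1 lay above all of them. The comparisons share groups of libraries, so their values are not independent of each other.

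**Figure D2:**
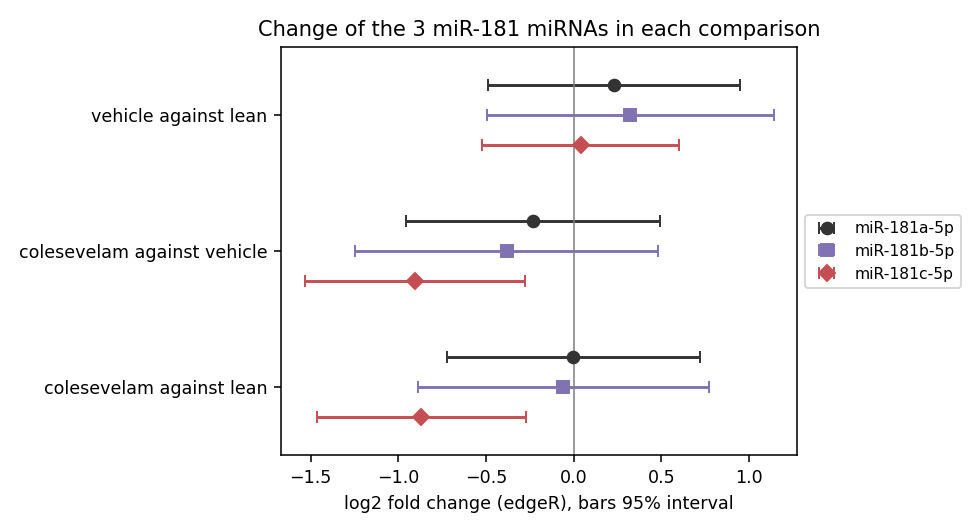
Log2 fold change of each member (points) with its 95% interval (bars) from the edgeR fit in the 3 comparisons, with 0 meaning no difference. For miR-181c-5p the intervals of both comparisons with colesevelam lie below 0 (−0.28 and −0.27 at their upper ends), and the intervals of the other members include 0 in all 3.

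In the authors' deposited table all 3 members carry negative log2 fold changes throughout. Against lean they are −2.02, −1.93 and −2.25 for vehicle and −2.57, −2.61 and −3.52 for colesevelam, for miR-181a-5p, miR-181b-5p and miR-181c-5p in turn. Nearly all miRNAs of that table are lower against lean: 177 of 183 (96.7%) are marked as lower in vehicle and 178 of 182 (97.8%) in colesevelam, so the marks of the members stand at the level of the table as a whole. The authors' size factors did not rise with the miRNA total of a library. Lean 2, with 881450 counts, had a factor of 0.885, and colesevelam 1, with 32936 counts, had one of 1.09. Counts scaled by them thus keep the difference in miRNA total between lean and obese libraries. With the authors' size factors in place of TMM, the edgeR fit called 110 of 112 miRNAs for vehicle against lean and 109 for colesevelam against lean, all 3 members among them on the lower side. For colesevelam against vehicle the authors' deposited table gives −0.56, −0.68 and −1.27. miR-181c-5p is marked there at an unadjusted p of 0.0202 (adjusted p = 0.150), as are 25 of 127 miRNAs (19.7%) on the lower side.

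Ratios within a library do not depend on how libraries are scaled to each other, but they can move with other library properties, as described further on. The log2 ratio of miR-181c-5p to miR-181a-5p counts (0.5 added to each) was −5.55 ± 0.80 in the lean group, −5.78 ± 0.66 in the vehicle group and −6.45 ± 0.88 in the colesevelam group (mean ± SD, n = 6), so miR-181a-5p outnumbered miR-181c-5p 46.9-fold, 54.9-fold and 87.6-fold. Across the libraries this ratio ranged from 24.4-fold in lean 4 to 216.7-fold in colesevelam 6, and the groups overlapped. On the log2 scale its medians were −5.53 (lean), −5.84 (vehicle) and −6.09 (colesevelam). The colesevelam median thus lay nearer to the other groups than the mean of −6.45, which includes −7.31 in colesevelam 4 and −7.76 in colesevelam 6. The log2 ratio of miR-181b-5p to miR-181a-5p was −5.56 ± 0.80, −5.40 ± 0.25 and −5.42 ± 0.58 in the same order, with group means closer together than the SD of any group. These ratios are given as a description, with no test.

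**Figure D3:**
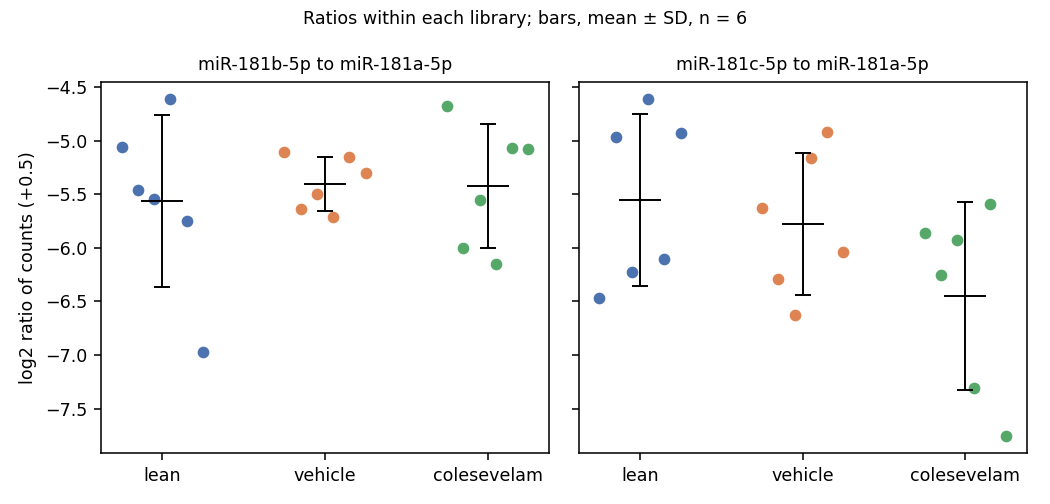
Log2 ratio of the counts of miR-181b-5p (left) and miR-181c-5p (right) to those of miR-181a-5p in each library (points, replicates 1 to 6 from left to right), with the mean and SD of 6 libraries per group. The lowest ratios of miR-181c-5p are those of colesevelam 6 and colesevelam 4, and lean 4 has the highest.

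Libraries of a group differed widely in miR-181a-5p, and in the lean group less so in miR-181c-5p. The coefficient of variation within a group was 44.3%, 43.0% and 50.2% for miR-181a-5p in lean, vehicle and colesevelam libraries, 55.6%, 52.7% and 29.6% for miR-181b-5p, and 16.4%, 42.5% and 33.6% for miR-181c-5p. Over the 112 tested miRNAs the median was 32.1%, 31.5% and 32.1%. In lean liver 11 of the tested miRNAs varied less than miR-181c-5p, while 80 varied less than miR-181a-5p and 92 less than miR-181b-5p. In the vehicle group 80, 81 and 100 miRNAs varied less than miR-181c-5p, miR-181a-5p and miR-181b-5p, in that order. In the colesevelam group miR-181b-5p varied least of the 3, with 51 miRNAs below it, against 64 for miR-181c-5p and 94 for miR-181a-5p. The summed share of the 3 members in all miRNA counts was 1.51 ± 0.75% for lean, 1.81 ± 0.82% for vehicle and 1.39 ± 0.71% for colesevelam (mean ± SD, 6 libraries each), nearly all of it from miR-181a-5p.

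The spread of miR-181a-5p moved with a property of the libraries. Lean 4, 2 and 6 held 6182, 8656 and 10676 CPM of miR-181a-5p, and lean 3, 1 and 5 held 18908, 19435 and 20175 CPM, with nothing in between. The slope of log2 level on the GC content of the other tested miRNAs was −1.07, −0.95 and −1.01 per 10 percentage points of GC in the first 3 libraries and −0.59, −0.49 and −0.53 in the others. In the vehicle group the 2 lowest libraries, vehicle 4 with 6741 CPM and vehicle 5 with 9357 CPM, had the steepest slopes (−1.01 and −0.78). Among colesevelam libraries the highest, colesevelam 4 with 27411 CPM, had the shallowest slope (−0.47), while the lowest, colesevelam 1 with 8990 CPM, had a slope of −0.57. Slopes of the groups overlapped, from −1.07 to −0.49 in lean, −1.01 to −0.24 in vehicle and −1.06 to −0.47 in colesevelam libraries. The log2 ratio of miR-181c-5p to miR-181a-5p split the lean libraries likewise. It was −4.61, −4.97 and −4.93 in lean 4, 2 and 6, and −6.23, −6.47 and −6.10 in lean 3, 1 and 5. This split is not a separate observation, since miR-181a-5p is the denominator of the ratio. Colesevelam 1 and 6 had ratios of −5.86 and −7.76 at near-equal slopes (−0.57 and −0.58). The part of the slope in the ratios was not tested. Its part in the levels of the members was not tested beyond the fit that follows.

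With the slope as a covariate, an alternative chosen after seeing the data, the SE of miR-181a-5p fell from 0.35 to 0.18 for colesevelam against lean, and its log2 fold change was 0.02 (edgeR adjusted p = 0.952). miR-181a-5p then stood at −0.25 ± 0.19 for vehicle against lean and at 0.27 ± 0.20 for colesevelam against vehicle, the reverse signs, still not called (edgeR adjusted p = 0.394 and 0.389). miR-181b-5p reversed likewise, to −0.19 ± 0.27 and 0.21 ± 0.30. miR-181c-5p was at −0.86 ± 0.27 for colesevelam against lean (edgeR adjusted p = 0.0132) and −0.89 ± 0.31 against vehicle (edgeR adjusted p = 0.0456). In that fit 43 of the 112 miRNAs were called for colesevelam against lean and 25 for colesevelam against vehicle.

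**Figure D4:**
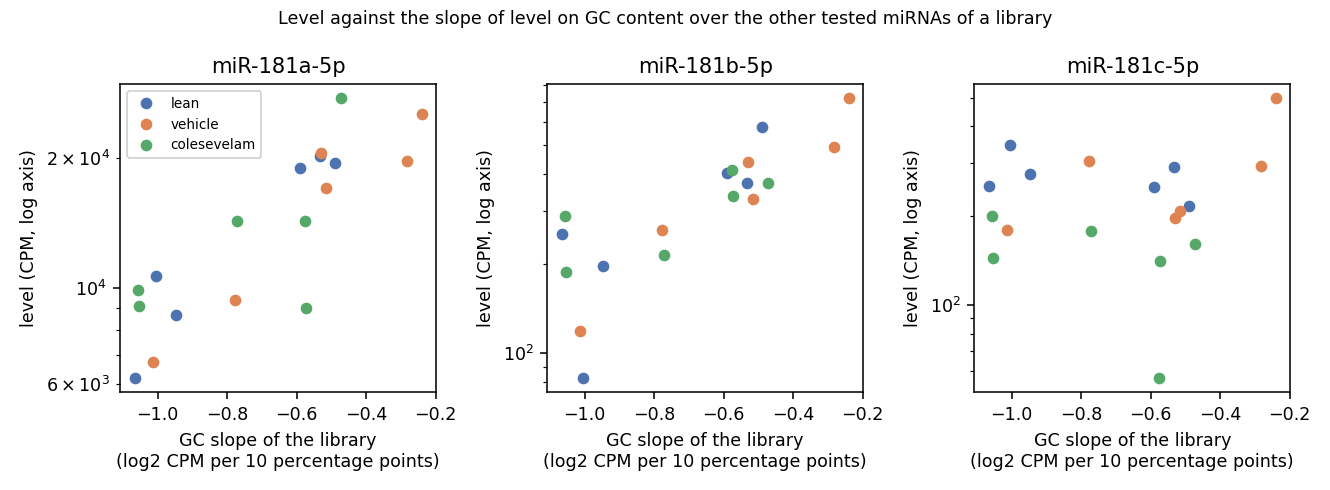
Level of each member in each library (CPM, log axis) against the slope of log2 level on GC content over the other tested miRNAs of that library, coloured by group. miR-181a-5p and miR-181b-5p are low in most libraries with steep slopes near −1, and the colesevelam libraries of miR-181c-5p lie low at every slope.

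Some libraries of a group share a number in their sample description, whose meaning the labels do not give. In the 5 such pairs miR-181a-5p differed by 1.57-fold to 3.26-fold between the libraries of a pair, the latter between lean 4 and lean 5. miR-181b-5p differed by 1.14-fold to 3.70-fold and miR-181c-5p by 1.097-fold to 1.28-fold. In each of the 5 pairs the ratio was larger for miR-181a-5p than for miR-181c-5p.

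The miRNAs most like each member were found by Pearson's correlation of log2 CPM over the 18 libraries, given as a description of points that share library, depth and GC slope. For miR-181a-5p they were let-7d-3p (r = 0.86), miR-151-3p (0.86), miR-125a-5p (0.85) and miR-328a-3p (0.83). For miR-181b-5p they were miR-92a-3p (0.89), miR-351-5p (0.88), miR-125b-2-3p (0.84) and miR-676 (0.79). These 8 miRNAs had a GC content of 50% or more, up to 68.2% in miR-328a-3p, against 47.8% in both members and 45.5% in miR-181c-5p. The share of the 112 tested miRNAs with such a GC content was not counted, so the 8 cannot be set against it. miR-181a-5p and miR-181b-5p had an r of 0.70 with each other. For miR-181c-5p the nearest were the mesenchymal miRNAs miR-199a-3p (0.66) and miR-145-5p (0.57), the red cell miRNA miR-451-5p (0.56) and the minor arm miR-122-3p (0.55), and its r was 0.13 with miR-181a-5p and 0.01 with miR-181b-5p. With group means subtracted, the nearest 4 of miR-181a-5p and of miR-181b-5p were the same names as before, led by miR-125a-5p (0.92) and miR-92a-3p (0.91). Those of miR-181c-5p became miR-425-5p (0.66), miR-378a-5p (0.58), miR-451-5p (0.52) and miR-24-3p (0.52).

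The other rows of the family were too low for the test across all miRNAs. miR-181d-5p, the partner of miR-181c-5p on chromosome 19, had 62 counts in all lean libraries together, 11 in the vehicle and 12 in the colesevelam group. In a fit with no filter on low counts its log2 fold change was −0.12 ± 0.60 for colesevelam against lean (edgeR adjusted p = 0.925) and 0.12 ± 0.71 against vehicle (edgeR adjusted p close to 1), so a change of the size of that of miR-181c-5p was not detectable at this depth. The same fit gave miR-181c-5p −0.93 ± 0.34 against lean (edgeR adjusted p = 0.0820). The minor arms miR-181a-1-3p and miR-181a-2-3p, which unlike the main arm tell the precursors on chromosomes 13 and 3 apart, had 179 and 88 counts over all libraries. In the unfiltered fit they were at −0.68 ± 0.48 and −0.14 ± 0.60 for colesevelam against lean (edgeR adjusted p = 0.473 and 0.906) and at −0.58 ± 0.48 and −0.04 ± 0.57 for vehicle against lean (0.724 and close to 1). miR-181c-3p had 25 counts, or 3.55% of the counts of both arms of its precursor (exact 95% binomial interval 2.31% to 5.19%, counting error only). miR-181b-1-3p and miR-181b-2-3p had 4 and 2 counts.

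The miRNAs of the cluster that lies nearest to Mir181c, miR-23a-3p, miR-27a-3p and miR-24-3p, were not called lower in any comparison. For colesevelam against lean miR-23a-3p rose, at 0.76 ± 0.25 on the log2 scale (edgeR adjusted p = 0.0321), while miR-27a-3p was at −0.66 ± 0.29 (0.0978) and miR-24-3p at 0.65 ± 0.30 (0.106). For colesevelam against vehicle none of the 3 was called, at 0.28, −0.03 and 0.54. In the deposited locations these 3 lie on the plus strand of chromosome 19, while miR-181c-5p lies on the minus strand. miR-24-3p has a second location, on chromosome 17.

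Tissue samples mix cell types, so fewer cells of a type and less miRNA per cell cannot be told apart. Of 3 tested leukocyte miRNAs, miR-142-5p and miR-150-5p were lower for colesevelam against lean (−1.18 ± 0.36 and −1.27 ± 0.37, edgeR adjusted p = 0.0236 and 0.0179) and miR-146a-5p was higher. The summed level of the 6 leukocyte rows lay between 2360 and 4222 CPM in colesevelam and between 2380 and 4558 CPM in lean libraries. The only tested bile duct miRNA, miR-200b-3p, was lower (−1.68 ± 0.34, edgeR adjusted p = 0.00137), and its list of 5 summed to 169.7 to 224.7 CPM against 399.1 to 651.5 CPM in lean libraries. None of the 3 tested mesenchymal miRNAs was called, with miR-199a-3p at −0.72 ± 0.28 (edgeR adjusted p = 0.0668), miR-145-5p at −0.65 ± 0.33 and miR-143-3p at 0.14 ± 0.18, and their list of 5 summed to 32633 to 62109 against 33589 to 48403 CPM. Neither endothelial row was called, with miR-126a-3p at −0.18 ± 0.22 and miR-126a-5p at −0.27 ± 0.31 and sums of 5035 to 12506 against 5344 to 12254 CPM. The red cell miRNA miR-451-5p was at −0.63 ± 0.42 (edgeR adjusted p = 0.295), with sums of 56.6 to 449.1 against 195.9 to 510.6 CPM over 3 rows. None of the 4 hepatocyte miRNAs was called, with a median log2 fold change of −0.06. For vehicle against lean, miR-142-5p (−1.27 ± 0.36, edgeR adjusted p = 0.0328) and miR-200b-3p (−1.94 ± 0.35, 0.000653) were lower too. There miR-150-5p and miR-146a-5p were at −0.00 and 0.03. For colesevelam against vehicle, miR-142-5p and miR-200b-3p were at 0.09 and 0.26 and not called. In that comparison miR-150-5p was lower (−1.27 ± 0.38, edgeR adjusted p = 0.0340) and miR-146a-5p higher (1.12 ± 0.27, 0.0114). No row of these lists was at 0 over all libraries, and their part in the level of miR-181c-5p was not tested.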

How the data were processed

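For 18 libraries the deposited table holds estimated counts of each mature miRNA, not scaled between libraries. It also holds the log2 fold changes, p-values and mean scaled counts of the authors' own DESeq2 comparisons, per the file headers. Livers were frozen and libraries were made from total RNA with a TruSeq kit, per the labels' protocols. Bowtie 1.1.2 and DESeq2 1.18.1 are named in the submitters' processing notes. No source used here gives the build, the annotation or the counting tool. No count of the miR-181 rows was fractional.

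Counts were rounded, filtered by group with filterByExpr (minimum count 10, minimum total 15, leaving 112 of 401 rows with 99.5% of counts) and scaled with TMM factors between 0.815 and 1.19. A single robust quasi-likelihood fit held all 18 libraries (edgeR 4.0.16, R 4.3.3), with F tests adjusted by Benjamini-Hochberg over 112 rows and called at 0.05. The code was tested on simulated data. SEs are the fold change divided by the square root of F. The authors' size factors were recovered from 491 of 492 mean scaled counts to within 0.1%. No 2 libraries of a group agreed within sampling noise. The members and lists were chosen with earlier results of these data known. Other miRNAs were named by fixed rules: rows named miR-181, rows with the seed, neighbours on the genome and in level, the 4 most correlated rows, and cell type lists (hepatocyte, leukocyte, endothelial, mesenchymal, bile duct, erythroid). Alternatives (scaling, filters, limma 3.58.1, DESeq2 1.42.0, replicate block, summed label numbers, libraries left out) are given at the end, and a fit with each library's GC slope was chosen after seeing the data. Intervals of single libraries cover counting error only, since the labels name no molecular identifiers.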

Additional observations from a re-analysis of the deposited data

Results flagged for a closer look

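Of 18 sets of 6 libraries checked (3 levels, 2 ratios and the summed share in 3 groups), 2 held a library set apart from the rest by more than Dixon's 95% limit, where chance gives about 1 in 20. Both were colesevelam 4, which held 27411 CPM of miR-181a-5p, while the next highest colesevelam library held 14289 CPM. The summed share of the 3 members there was 2.76% of miRNA counts. Nearly all of that share came from miR-181a-5p, so the 2 sets are not separate observations and the 18 sets are not independent. The level of miR-181c-5p in colesevelam 4, 159.8 CPM, lay within the range of the other colesevelam libraries.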

How the results depend on the processing

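Direction and call of the 3 members under alternatives are given as log2 fold changes. The scaling mattered most against lean. The authors' size factors moved the median of all miRNAs to −2.38 (vehicle against lean), −0.36 (colesevelam against vehicle) and −2.76 (colesevelam against lean). With them miR-181a-5p, miR-181b-5p and miR-181c-5p stood at −2.02, −1.92 and −2.24 for vehicle against lean. For colesevelam against lean they stood at −2.57, −2.60 and −3.50. miR-181c-5p was then at −1.26 for colesevelam against vehicle (edgeR adjusted p = 0.417). The calls were then 110, 2 and 109 in the 3 comparisons, where TMM gave 7, 12 and 24. For colesevelam against vehicle, miR-181c-5p passed with library totals alone (−1.05, edgeR adjusted p = 0.0289), without miR-192-5p in the totals (−1.02, 0.0320), with DESeq2 size factors in edgeR (−0.91, 0.0433), in DESeq2 (−0.91, 0.0252) and with the GC slope (−0.89, 0.0456). It was not called with no filter (−0.94, edgeR adjusted p = 0.228), and fitting those 2 groups alone left too few counts of it to test. For colesevelam against lean its call ended with upper-quartile factors (−0.78, edgeR adjusted p = 0.0667), no filter (−0.93, 0.0820) and libraries summed by label number (−0.96, 0.0943). The number of calls for colesevelam against vehicle was 6 with upper-quartile factors and 7 with no filter or with summed label numbers. Fold changes near 0 changed sign: miR-181c-5p for vehicle against lean without miR-192-5p (−0.0048), and for colesevelam against lean miR-181a-5p with upper-quartile factors (0.046), limma-voom (0.013) and a minimum of 50 CPM (0.043) and miR-181b-5p with limma-voom (0.20) and summed label numbers (0.25). With the GC slope miR-181a-5p was at −0.25, 0.27 and 0.016 and miR-181b-5p at −0.19, 0.21 and 0.023 in that order of the comparisons, with 16, 25 and 43 calls. The share of calls on the higher side for colesevelam against lean was 54.2% with TMM, 37.9% with library totals and 63.2% with upper-quartile factors.

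Replicate numbers did not pair the libraries, since same-numbered libraries correlated between −0.64 and 0.58 and only 4 of 18 correlated best with their own number. With a replicate block miR-181c-5p was at −0.89 for colesevelam against lean and no longer called (edgeR adjusted p = 0.0592). It was at −0.014 for vehicle against lean, miR-181a-5p and miR-181b-5p at 0.067 and 0.029 for colesevelam against lean, and 7 miRNAs were called for colesevelam against vehicle.

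With single libraries left out, the log2 fold change of miR-181c-5p ranged from −0.15 to 0.14 for vehicle against lean and from −0.999 to −0.67 for colesevelam against lean, where it was called in 8 of 12 fits. For colesevelam against lean miR-181a-5p ranged from −0.27 to 0.16 and miR-181b-5p from −0.25 to 0.16. The calls for colesevelam against vehicle ranged from 7 to 14, with 7 without vehicle 6. Group means of the ratios and summed shares moved by less than 1 SD in all alternatives run. Leaving out 1 of the 6 libraries of a group cannot move its mean that far, so those alternatives could not have come out otherwise. The depth of 3 to 47 counts of miR-181c-5p per obese library limits what can be read from a single one.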
